A study of Oryza sativa with 3 samples.

Results

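MicroRNA levels in young panicles of the rice mutant ld-2 were set against those of the mutant ld-1. The ratio was taken over the sequences with at least 30 reads summed over the 3 libraries of the study, which were 109 of the 367 sequences in the deposited table. Both mutants are japonica rice (Oryza sativa) grown without treatment, and the series title places the lodiculeless spikelet in a mutation of miR172b and connects it with cleistogamy, flowers that stay closed. Lodicules are the small floral organs that swell to push a grass floret open. The base changes that distinguish the alleles, the number of plants behind each RNA sample and the panicle stage do not stand in the labels, and neither does whether a sample grew in the greenhouse or in the field plot. There was 1 library each of ld-2, ld-1 and wild type. The wild type library helped to set the scaling and the read minimum, and its values are given for orientation.

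The ld-2 library had 66642 miRNA reads, against 140807 in ld-1, with 116818 in wild type. After scaling, 1 read was worth 13.7 scaled RPM (reads relative to library size) in ld-2 and 7.94 in ld-1, so low counts were less precise in ld-2. Of the tested sequences 39 had at least 100 reads in ld-2, against 48 in ld-1. The mature miR172b sequence, which names the mutation, had 1 read in ld-2 and 2 in ld-1, against 298 in wild type. All ratios below are ld-2 over ld-1 of scaled RPM on a log2 scale, with exact 95% intervals. The intervals cover counting error only, and without replicates no difference could be set against the spread between plants.

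Plant miRNAs are cut from hairpin precursors as duplexes, and the strand held by an ARGONAUTE protein directs the cleavage or repression of matching transcripts. The duplex has 2 arms, of which one usually accumulates. Several conserved families govern flower development: miR172 represses AP2-like factors, miR156 represses SPL factors and falls as shoots leave the juvenile phase, and miR159 and miR319 act on GAMYB and TCP factors. In grasses the family miR2118, 22 nt long, starts the production of phased small interfering RNAs (phasiRNAs) from long noncoding transcripts in young anthers.

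The following sequences are examples of those that differed and those that stayed level. They are printed 5′ to 3′ from the deposited table in DNA letters, and the seed, bases 2 to 8, is in capitals. The first group holds the most abundant member and the member with the highest ratio of miR2118, and 2 of the 21-nt sequences with high ratios. These 2, miR5791 and miR5519, passed the read minimum only with their ld-2 reads.
miR2118h//miR2118k: tTCCTGATgcctctcattccta
miR2118g: tTCCTAATgcctcccattccta
miR5791: tTGCAGGAgactagagaccag
miR5519: tGGCAGAAgtactggacttag
The second group holds the SPL-targeting miR156 and the members of miR159 and miR319, which include a pair with the same seed on different sides of the 2-fold threshold.
miR156a to miR156j: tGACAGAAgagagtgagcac
miR319b: tTGGACTGaagggtgctccc
miR319a: aGCTGCCGaatcatccattca
miR159f: cTTGGATTgaagggagctcta
miR159a//miR159b: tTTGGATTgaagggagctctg
The third group holds miR166 sequences that moved apart from the bulk of their family, beside the most abundant one.
miR166e: tCGAACCAggcttcattcccc
miR166k: gGTTTGTTgtctggctcgagg
miR166a to miR166j: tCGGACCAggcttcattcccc

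Set against ld-1, the ld-2 panicle had 21 sequences at least 2-fold higher with an interval that excluded 0, which is 19.3% of those tested, and 6 at least 2-fold lower, which is 5.5%. A further 24 sequences, or 22%, were level, meaning that the whole interval lay within 1.5-fold either way. Another 57 fell in between, and miR172b had too few reads for a ratio. Of the 21 higher sequences 12 were miR2118 and 5 were 21-nt sequences numbered between miR5400 and miR5899. The 6 lower ones were miR156, both miR319 sequences, miR159f, miR166k and miR1428e. The median log2 ratio over all tested sequences was 0.05, with 55 above 0 and 53 below, and it was -0.04 without miR2118. With RPM of all miRNA reads in place of the scaled values the split was 23 higher and 3 lower, and the median moved by 0.29.

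**Figure D1:**
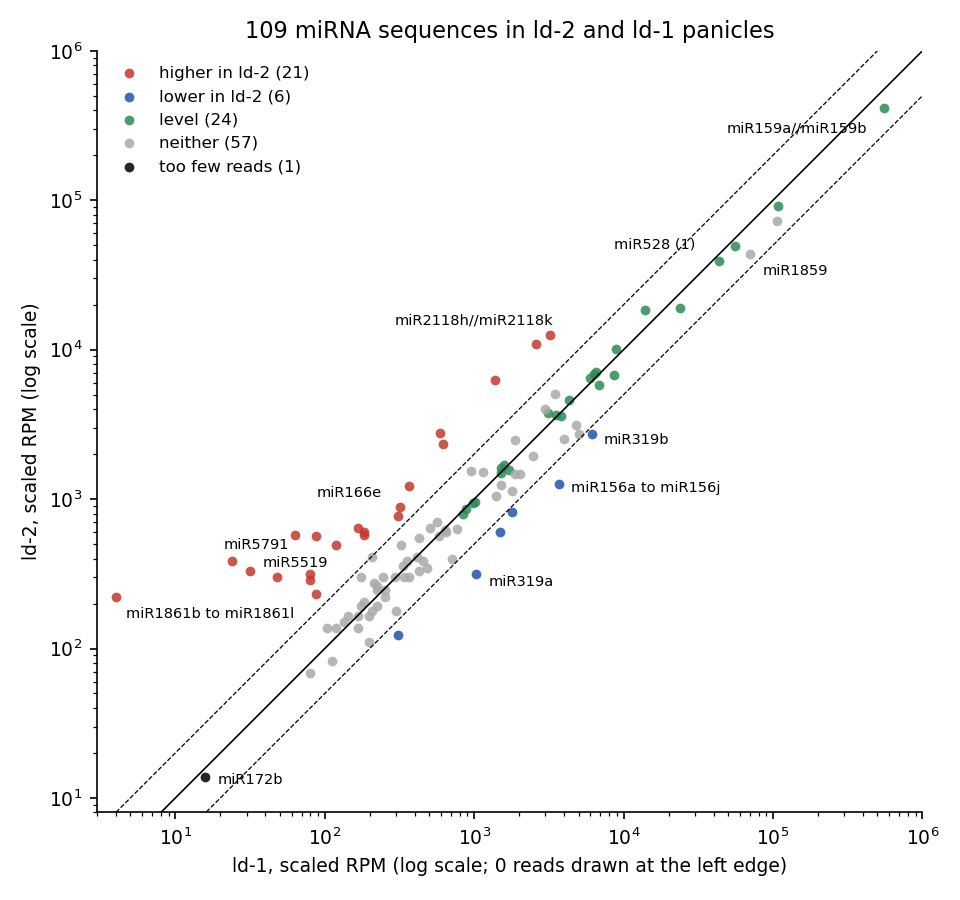
Scaled RPM of the 109 tested sequences in ld-2 (vertical) against ld-1 (horizontal), both on log scales, with the line of equality and dashed lines at 2-fold. The 21 higher sequences lie mostly at low and middle levels, while the most abundant sequences all lie within the dashed lines. In the names, (1) marks the more abundant of 2 sequences listed under one name.

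The miR2118 family was higher in ld-2 as a block: all 12 tested sequences were called higher, against 19.3% of all tested sequences. These 12 are every miR2118 sequence of the table, and 2 of them, miR2118i and miR2118l, passed the read minimum only with their ld-2 reads. Together they had 2880 reads in ld-2, against 1208 in ld-1, with 1292 in wild type. Their share of the miRNA reads was 4.32% in ld-2 (exact binomial interval 4.17% to 4.48%), against 0.858% in ld-1 (0.810% to 0.907%). The summed log2 ratio was 2.04 (1.95 to 2.14), a 4.12-fold difference, and the median over the members was 2.00. miR2275, the other family on the list of reproductive phasiRNA triggers, had no read in either mutant. In whole panicles, more cells of a type and more RNA per cell cannot be told apart, and panicle stage was not given.

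The most abundant member, miR2118h//miR2118k, had 914 reads (12545 scaled RPM) in ld-2, against 408 (3240 scaled RPM) in ld-1, with 409 reads in wild type. Its log2 ratio was 1.95 (1.78 to 2.13). The sequence shared by miR2118f, miR2118j and miR2118m had 799 reads in ld-2, against 327 in ld-1, a log2 ratio of 2.08 (1.89 to 2.27). In miR2118c//miR2118q the counts were 454 in ld-2 and 174 in ld-1, and the log2 ratio was 2.17 (1.92 to 2.43). Thus the 3 most abundant members differed by nearly the same factor.

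The other members were rarer and reached the same order of difference. miR2118d had 201 reads in ld-2, against 74 in ld-1 (log2 2.23), and miR2118b//miR2118n had 171, against 78 (log2 1.92). miR2118e//miR2118r had 89 and 46 reads in ld-2 and ld-1 (log2 1.74). The lowest ratio of the family was that of miR2118a, 1.66 (0.89 to 2.46), with 42 reads in ld-2 and 23 in ld-1. Close to it stood miR2118o, at 1.73 with 44 and 23 reads in ld-2 and ld-1, and miR2118p, at 1.95 with 47 and 21. miR2118i was at 2.05, with 36 reads in ld-2 and 15 in ld-1.

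The highest ratios belonged to the 2 members with the seed TCCTAAT. miR2118g had 42 reads (576 scaled RPM) in ld-2, against 8 (63.5 scaled RPM) in ld-1, with 22 in wild type, and a log2 ratio of 3.18 (2.07 to 4.48). miR2118l had 41 reads in ld-2, against 11 in ld-1, and a log2 ratio of 2.69 (1.70 to 3.80). Summed by seed, the log2 ratio was 2.92 (2.18 to 3.72) for TCCTAAT, 2.02 (1.91 to 2.14) for TCCTGAT with 4 sequences, and 2.09 (1.88 to 2.30) for TCCCGAT with 3.

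Within the family the make-up was nearly alike in both mutants. miR2118h//miR2118k made up 31.7% of the miR2118 reads in ld-2, against 33.8% in ld-1, and miR2118f//miR2118j//miR2118m made up 27.7%, against 27.1%. The odds of a family read belonging to a given member differed beyond counting error for 1 of the 12, miR2118g, with an odds ratio of 2.22 (1.03 to 5.49). Every member lies 1 or 2 edits from another, for example T14C from miR2118h//miR2118k to miR2118f//miR2118j//miR2118m (positions run from the 5′ end). No source used here says to which of such sequences an ambiguous read was assigned.

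Ratios inside a library do not depend on how libraries are scaled. For every 100 reads of miR159a//miR159b, the most abundant sequence, there were 9.50 miR2118 reads in ld-2, against 1.74 in ld-1, with 2.44 in wild type. The odds ratio was 5.47 (5.11 to 5.87). Per 100 reads of miR394, a level sequence, there were 559 miR2118 reads in ld-2, against 146 in ld-1 (odds ratio 3.84, 3.37 to 4.38). Against the summed 24-nt sequences the odds ratio was 3.80 (3.46 to 4.17). These pairings across families were chosen after the values were seen.

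**Figure D2:**
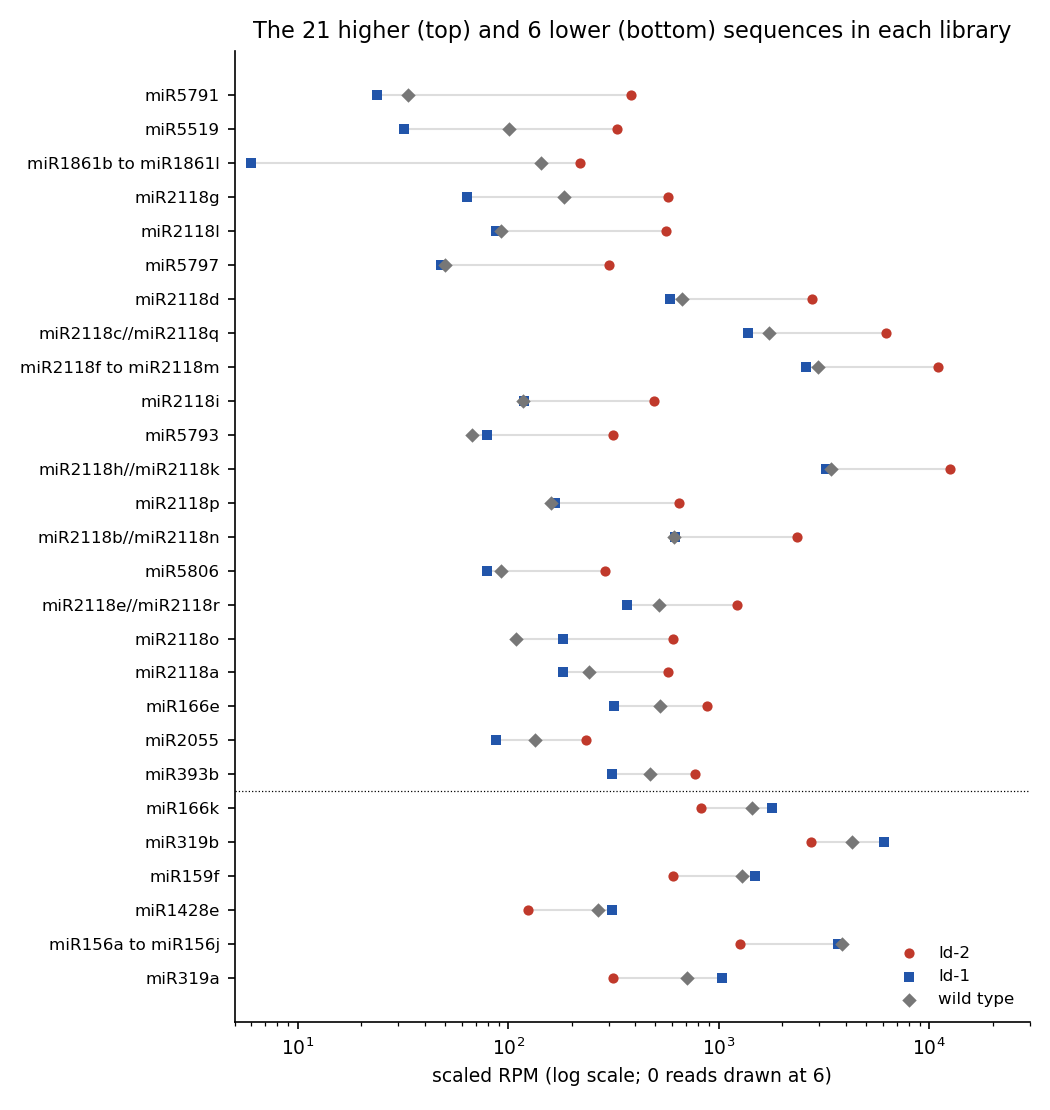
Scaled RPM on a log scale of the 21 sequences higher (top) and 6 lower (bottom) in ld-2 relative to ld-1, 1 symbol per library. In the 12 miR2118 rows the ld-2 symbol lies to the right of both others, and in most of them the ld-1 and wild type symbols lie near each other; a count of 0 is drawn at 6.

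A set of 21-nt sequences numbered between miR5400 and miR5899 held the 2 highest ratios among tested sequences read in both mutants. miR5791 had 28 reads (384 scaled RPM) in ld-2, against 3 (23.8) in ld-1, with 4 in wild type, and its log2 ratio was 4.01 (2.32 to 6.37). miR5519 had 24 reads in ld-2, against 4 in ld-1, with 12 in wild type, and its log2 ratio was 3.37 (1.83 to 5.36). The wide intervals come from the single-digit counts in ld-1.

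The remaining 3 called higher were of like abundance. miR5797 had 22 reads in ld-2 and 6 in ld-1 (log2 2.66, 1.32 to 4.26), miR5793 had 23 and 10 (1.99, 0.86 to 3.23), and miR5806 had 21 and 10 (1.86, 0.71 to 3.11). Not all of the range moved: miR5794, the most abundant of it, was level with 70 reads in ld-2 and 127 in ld-1 (log2 -0.07, -0.51 to 0.36). miR5513 had 6 reads in ld-2 and 14 in ld-1 (log2 -0.43, -2.10 to 1.04). The 7 tested sequences had 194 reads together in ld-2 and 174 in ld-1. These numbers are database names and not families by sequence, and the range was set after the values were seen.

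The read minimum bears on such rare sequences. Of the tested sequences 14 passed it only with their ld-2 reads, and 9 of these were called higher. All 5 of the called sequences numbered between miR5400 and miR5899 are among the 9, so their count and their size say nothing of the range as a whole. In the other direction, 10 passed only with their ld-1 reads and none of these was called lower. With at least 30 reads over ld-2 and ld-1 alone, 17 were called higher and 6 lower, and miR5519 and miR5797, at 28 reads each, were no longer tested.

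Among SPL-targeting families the single tested miR156 sequence, encoded at 10 named copies, was the one that changed. It had 92 reads (1263 scaled RPM) in ld-2, against 464 (3684 scaled RPM) in ld-1, with 458 in wild type. It was 2.92-fold lower in ld-2, a log2 ratio of -1.54 (-1.88 to -1.22), so the ld-2 library stood apart from the other two. miR529a, of a family that also acts on SPL factors, was level with 114 reads in ld-2 and 216 in ld-1 (log2 -0.13, -0.47 to 0.20). It is the only tested sequence of its family, so its arm could not be placed. The targets of the family need not be its own. The more abundant miR535 sequence was level too, with 732 reads in ld-2 and 1116 in ld-1 (log2 0.18, 0.04 to 0.32), and the other miR535 sequence had 13 and 26 reads (-0.21, -1.29 to 0.80).

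Of the 4 tested SPL-targeting sequences, then, none was higher, against 19.3% of all tested. Among them 1 was lower (25%, against 5.5%) and 2 were level (50%, against 22%). The list goes by family number, and the less abundant miR535 sequence resembles the opposite arm. Their median was -0.17 and their summed log2 ratio was -0.15 (-0.26 to -0.03), and both turned positive, to 0.12 and 0.14, with RPM of all miRNA reads. Within a library there were 12.6 miR156 reads per 100 miR535 reads in ld-2, against 41.6 in ld-1, with 26.7 in wild type (odds ratio 0.302, 0.235 to 0.387). Per 100 miR529a reads there were 80.7 miR156 reads in ld-2, against 215 in ld-1 (odds ratio 0.376, 0.270 to 0.523).

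In the GAMYB and TCP-targeting list 3 of its 4 tested sequences were called lower, against 5.5% of all tested, and no other list had more than 1. miR319b, whose family represses TCP factors in leaf and petal growth, had 200 reads (2745 scaled RPM) in ld-2, against 769 (6106 scaled RPM) in ld-1, with 513 in wild type. It was 2.22-fold lower, a log2 ratio of -1.15 (-1.39 to -0.93), a call lost under RPM of all miRNA reads (-0.86). Wild type lay between the mutants.

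miR319a had 23 reads (316 scaled RPM) in ld-2, against 130 (1032 scaled RPM) in ld-1, with 84 in wild type, and was 3.27-fold lower (log2 -1.71, -2.42 to -1.06), the lowest ratio of all tested sequences. As the printed sequences show, it shares no seed with miR319b, its arm could not be placed, and the targets of the family need not be its own. There were 11.5 miR319a reads per 100 miR319b reads in ld-2 and 16.9 in ld-1, an odds ratio of 0.680 (0.406 to 1.10) whose interval included 1.

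miR159 represses GAMYB factors, which are needed in anthers. miR159f had 44 reads (604 scaled RPM) in ld-2, against 187 (1485 scaled RPM) in ld-1, with 154 in wild type, and was 2.46-fold lower (log2 -1.30, -1.81 to -0.82). The sequence shared by miR159a and miR159b, with the same seed, had 30304 reads in ld-2, against 69561 in ld-1, and its log2 ratio was -0.41 (-0.43 to -0.39), within the range called level. From miR159a//miR159b to miR159f the letters differ by T1C and G21A. There were 0.145 miR159f reads per 100 of miR159a//miR159b in ld-2, against 0.269 in ld-1, with 0.290 in wild type (odds ratio 0.540, 0.380 to 0.754). miR319b also stood lower against miR159a//miR159b, at 0.660 reads per 100 in ld-2 and 1.11 in ld-1 (odds ratio 0.597, 0.508 to 0.699).

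The list median was -1.23, while the summed reads, nearly all of miR159a//miR159b, gave -0.42 (-0.44 to -0.40). The list took 45.9% of the miRNA reads in ld-2, against 50.2% in ld-1, with 46.1% in wild type.

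**Figure D3:**
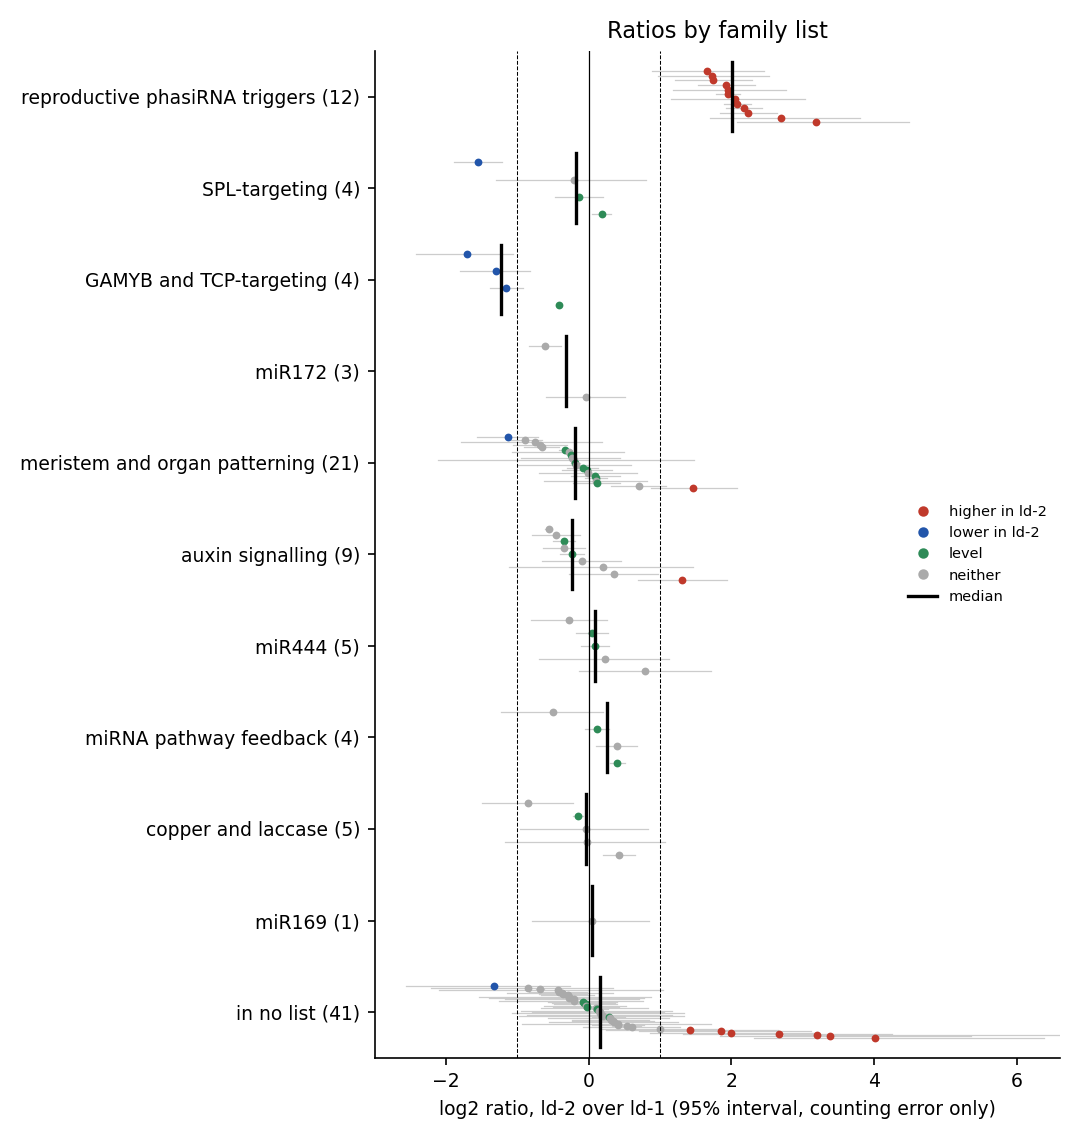
Log2 ratios, ld-2 over ld-1, of the tested sequences by family list, with exact 95% intervals (counting error only), medians and dashed lines at 2-fold; miR172b has no ratio and is not drawn. The 12 phasiRNA triggers all lie to the right of 1 and 3 of the 4 GAMYB and TCP-targeting sequences lie to the left of -1, while the points of most other lists lie around 0.

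The miR172 family, which represses AP2-like factors and is the family named in the series title, gave no call between the mutants. The sequence shared by miR172a and miR172d had 229 reads (3143 scaled RPM) in ld-2, against 603 (4788 scaled RPM) in ld-1, with 522 in wild type. Its log2 ratio was -0.61 (-0.83 to -0.39), below 0 but under 2-fold. The other miR172d sequence, which resembles the opposite arm, had 45 reads in ld-2 and 80 in ld-1 (log2 -0.04, -0.60 to 0.50). miR172c had no read in either mutant. Summed, the family had 275 reads in ld-2, against 685 in ld-1, a log2 ratio of -0.53 (-0.73 to -0.32).

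Meristem and organ patterning families, the largest list with 21 tested sequences, had 1 sequence called higher (4.76%, against 19.3% of all tested). Another 1 was lower (4.76%, against 5.5%) and 8 were level (38.1%, against 22%). The list median of -0.19 turned to 0.10 with RPM of all miRNA reads. The abundant miR166 sequences, which repress HD-ZIP III factors, were level. The one shared by miR166a and 5 further copies had 6622 reads in ld-2 and 13632 in ld-1 (log2 -0.25, -0.29 to -0.21), and miR166g//miR166h had 3570 and 7020 (-0.19, -0.24 to -0.13). miR166k//miR166l had 1377 reads in ld-2 and 2982 in ld-1 (-0.33, -0.42 to -0.23).

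Of the 10 tested miR166 sequences 9 lay below 0, and miR166e, among the rarer ones, was the only one above. miR166e had 64 reads (878 scaled RPM) in ld-2, against 40 (318 scaled RPM) in ld-1, with 63 in wild type, and was 2.77-fold higher (log2 1.47, 0.88 to 2.08). It differs from the abundant miR166a sequence by G4A, inside the seed, and there were 0.966 miR166e reads per 100 of that sequence in ld-2, against 0.293 in ld-1 (odds ratio 3.29, 2.18 to 5.02). miR166k, an opposite-arm sequence, had 60 reads (824 scaled RPM) in ld-2, against 226 (1795 scaled RPM) in ld-1, with 172 in wild type, and was 2.18-fold lower (log2 -1.12, -1.56 to -0.71). This call was lost under RPM of all miRNA reads (-0.83).

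Other families of the list held few differences. miR394, which acts on an F-box transcript, was level with 515 reads in ld-2 and 829 in ld-1 (log2 0.10, -0.06 to 0.26). miR164a//miR164b//miR164f, which targets NAC genes, was level with 262 and 480 reads (-0.08, -0.31 to 0.14). So was the shared miR171 sequence, which targets GRAS genes, with 109 reads in ld-2 and 191 in ld-1 (-0.02, -0.37 to 0.33), and miR171c was level as well (0.11).

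In miR396, which represses growth-regulating factors, the sequences spread out. miR396a//miR396b had 112 reads in ld-2 and 119 in ld-1 (log2 0.70, 0.32 to 1.09), the level miR396e had 118 and 191 (0.09, -0.25 to 0.43), and miR396c had 185 and 505 (-0.66, -0.91 to -0.41). There were 63.8 miR396e reads per 100 miR396c reads in ld-2, against 37.8 in ld-1 (odds ratio 1.69, 1.25 to 2.26).

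Auxin signalling families had 1 of 9 sequences called higher (11.1%, against 19.3% of all tested), none lower and 2 level (22.2%, against 22%), shares under or near those of all tested sequences. miR393b, of a family that targets auxin receptors, had 56 reads (769 scaled RPM) in ld-2, against 39 (310 scaled RPM) in ld-1, with 56 in wild type. It was 2.48-fold higher (log2 1.31, 0.70 to 1.94). This miR393b sequence shares no seed with miR393a, and the targets of the family need not be its own. miR393a had 10 reads in ld-2 and 15 in ld-1 (0.20, -1.11 to 1.46). miR167a//miR167b//miR167c, which targets auxin response factors, was abundant and lower by less than 2-fold, with 5280 reads in ld-2, against 13467 in ld-1 (log2 -0.56, -0.61 to -0.52). miR160e was level with 421 and 857 reads in ld-2 and ld-1 (-0.24, -0.41 to -0.07), and miR160a//miR160b//miR160c//miR160d had 142 and 311 (-0.34, -0.64 to -0.05). The more abundant miR390 sequence, which starts the processing of TAS3 transcripts, was level with 493 reads in ld-2 and 1086 in ld-1 (-0.35, -0.51 to -0.19), and the other miR390 sequence was at -0.46 (-0.80 to -0.13). The median of the list was -0.24, and 0.05 with RPM of all miRNA reads.

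Several smaller lists had no call in either direction, except miR444e, which was called higher (1.08) with RPM of all miRNA reads. In miR444, a monocot family that targets MADS-box genes, both sequences shared by miR444b and miR444c were level, with 334 and 265 reads in ld-2, against 542 and 442 in ld-1 (log2 0.09 and 0.05). miR444e (0.79), miR444a (0.23) and miR444d (-0.27) had intervals that included 0. The list median of 0.09 turned to -0.02 when the 5 most abundant sequences were left out of the library sizes.

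The feedback list holds miR168 and miR162, which act on the transcripts of the miRNA machinery proteins AGO1 and DCL1. The more abundant miR168a sequence had 1347 reads in ld-2 and 1762 in ld-1 and was level, though its interval lay above 0 (log2 0.40, 0.30 to 0.51). miR162a was level with 467 and 745 reads in ld-2 and ld-1 (0.12, -0.05 to 0.28), and miR162b had 180 and 237 (0.39, 0.10 to 0.68). The second miR168a sequence, 24 nt long, had 25 and 61 reads (-0.50, -1.23 to 0.20).

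In the copper and laccase list the more abundant miR528 sequence was level with 2839 reads in ld-2 and 5446 in ld-1, with 1885 in wild type (log2 -0.15, -0.22 to -0.08, and above 0 with RPM of all miRNA reads). The other miR528 sequence was at 0.43 (0.21 to 0.65). miR408, which targets laccases and plantacyanins, had 29 reads in ld-2 and 90 in ld-1 for its more abundant sequence (-0.84, -1.50 to -0.23) and 18 and 32 for the other (-0.04, -0.96 to 0.84). miR398b had 12 and 21 reads (-0.02, -1.17 to 1.07). miR169e, the single tested member of its family, had 22 reads in ld-2 and 37 in ld-1 (0.04, -0.79 to 0.84). None of the nutrient families miR395, miR399 and miR827 reached the read minimum, and their summed reads were 10 in ld-2 and 17 in ld-1 (0.02, -1.27 to 1.23).

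Outside the lists stood 41 tested sequences, with a median of 0.15. Of these 7 were called higher (17.1%, against 19.3% of all tested), 1 lower (2.44%, against 5.5%) and 6 level (14.6%, against 22%). All 7 higher ones passed the read minimum only with their ld-2 reads, so their share says nothing of the sequences outside the lists. Besides the 5 of the miR5400 to miR5899 range, the higher ones were miR2055 and the sequence shared by miR1861b, miR1861f, miR1861i and miR1861l. That miR1861 sequence had 16 reads (220 scaled RPM) in ld-2 and none in ld-1, which allows up to 23.8 scaled RPM by a floor of 3 reads, with 17 in wild type. Against that floor it was 9.22-fold higher in ld-2, and the lower 95% limit of the log2 ratio was 2.74. miR2055 had 17 reads in ld-2 and 11 in ld-1 (1.42, 0.24 to 2.66). The lower one, miR1428e, had 9 reads in ld-2, against 39 in ld-1, with 32 in wild type (-1.33, -2.56 to -0.26), and its call was lost under RPM of all miRNA reads, with a 99% interval and with 5 reads added to each count. The abundant miR1859 had 3170 reads in ld-2, against 8795 in ld-1 (-0.68, -0.74 to -0.62).

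The sequences nearest to the threshold were as follows. Just above 2-fold on the higher side lay miR393b, miR2055 and miR166e, and just under it miR1873 with 30 reads in ld-2 and 26 in ld-1 (log2 0.996, 0.19 to 1.81), miR396a//miR396b (0.70) and miR5144 with 366 and 437 reads (0.53, 0.33 to 0.74). On the lower side miR166k, miR319b and miR159f lay just past it, and miR166h with 199 and 636 reads (-0.89, -1.12 to -0.65), the more abundant miR408 sequence (-0.84) and miR1859 (-0.68) just short of it. In all, 27 sequences had an interval that excluded 0 but differed by less than 2-fold, 9 of them above 0 and 18 below.

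By length, calls were most frequent at 22 nt. Of the 15 tested sequences of 22 nt, 13 were called higher (86.7%, against 19.3% of all tested), namely the 12 miR2118 sequences and the miR1861 sequence, and 3 of the 13 passed the read minimum only with their ld-2 reads. The share of reads at 22 nt was 9.12% in ld-2 (8.90% to 9.34%), against 7.12% in ld-1 (6.98% to 7.25%). The summed log2 ratio was still only 0.07 (0.02 to 0.11), since miR1859 holds most 22-nt reads, and it was -0.67 without miR2118.

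The 64 tested sequences of 21 nt had a median of -0.07 and took 86.5% of the reads in ld-2, against 89.1% in ld-1. Of the 64, 8 were called higher (12.5%, against 19.3% of all tested), 4 lower (6.25%, against 5.5%) and 18 level. All of the 8 but miR166e and miR393b passed the read minimum only with their ld-2 reads. The 6 of 20 nt had none higher and 2 lower (33.3%, against 5.5% of all tested), miR156 and miR319b, with a median of -0.30.

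None of the 24 tested sequences of 24 nt was called either way under the scaling used, against 19.3% higher and 5.5% lower of all tested. However, miR1873 was called higher with RPM of all miRNA reads (1.29), with TMM from ld-1 and ld-2 alone (1.02) and with TMM without miR2118 (1.10). Among the 24, 4 were level, while 22% of all tested sequences were level. These 4 were miR1862d, with 497 reads in ld-2 and 794 in ld-1 (log2 0.11), miR1876 (0.28), miR1878 (-0.04) and miR1871 (-0.08). The median of the 24 was 0.13 and their summed ratio 0.12 (0.02 to 0.21). As a share of reads they took 2.27% in ld-2 (2.15% to 2.38%), against 1.71% in ld-1 (1.64% to 1.78%).

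**Figure D4:**
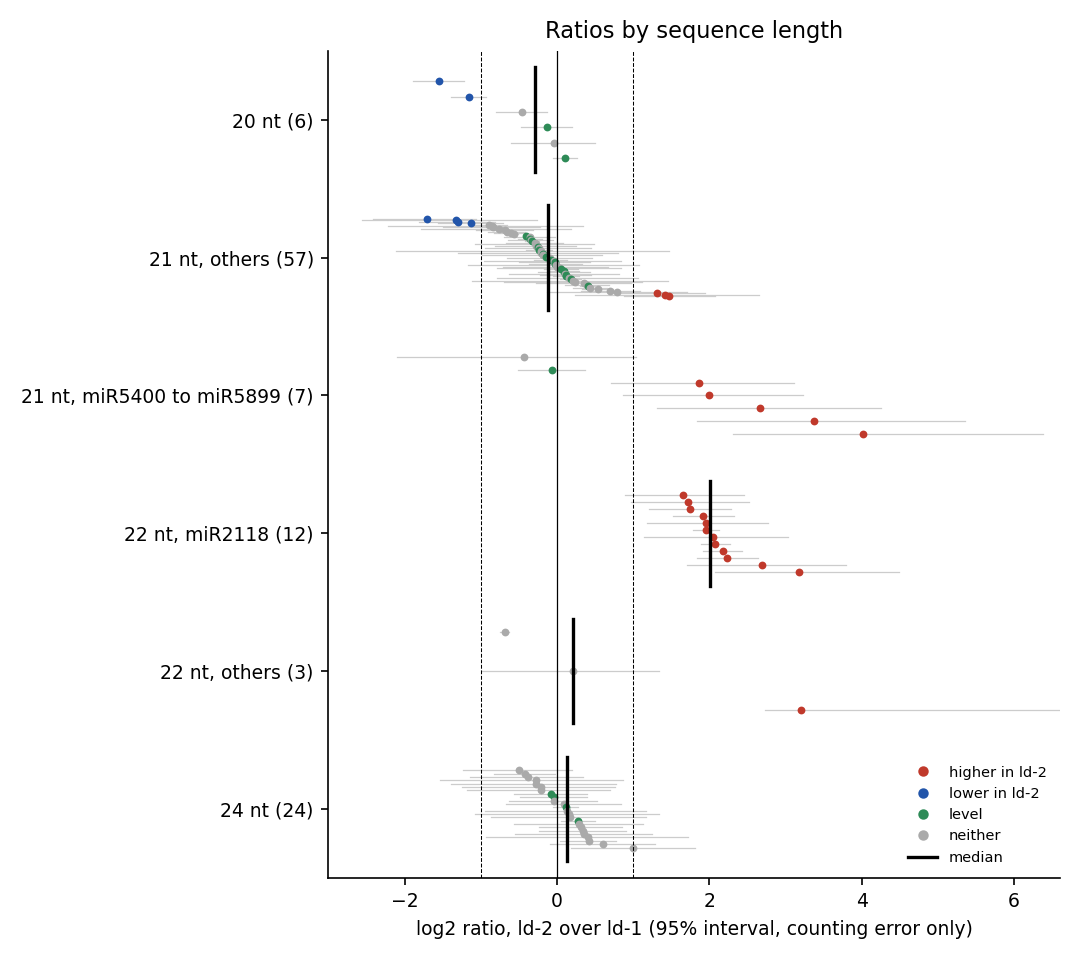
Log2 ratios, ld-2 over ld-1, by sequence length, with exact 95% intervals (counting error only), dashed lines at 2-fold and medians, except for miR5400 to miR5899, a range set after the values were seen. The miR2118 sequences and 5 of the 7 sequences of 21 nt numbered between miR5400 and miR5899 lie to the right of 1, all 5 having passed the read minimum only with their ld-2 reads, while no 24-nt sequence passes 2-fold under this scaling.

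By first base, 17 of the 67 sequences that begin with T were called higher (25.4%, against 19.3% of all tested) and 3 lower. Without miR2118 and miR159a//miR159b 6 of 55 were higher (10.9%), near the 9.28% of all tested sequences without miR2118. Among the 13 that begin with G none was higher and 1 was lower, with a median of -0.22. Most of these 13 resemble the opposite arm of their family, so first base and arm cannot be told apart there. Those that begin with A numbered 18, with 1 higher and 1 lower, and those that begin with C numbered 11, with 3 higher and 1 lower. Over all tested sequences 19.3% were higher and 5.5% lower. Outside miR2118, all higher sequences but miR166e and miR393b passed the read minimum only with their ld-2 reads.

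Finally, opposite-arm sequences were compared with a partner of their family inside each library. Arms are not named in the table, so 18 opposite-arm sequences were told apart by likeness to the reverse complement of the most abundant sequence of their family. Similar sequences of a family were placed together as a group. Opposite here means opposite to that most abundant sequence, whichever strand of the duplex it is. This step was chosen after the values were seen. In 16 pairs both sequences carry a copy name in common, while miR393a and miR444a were set against the most abundant sequence of their family. The median odds ratio over the 18 pairs was 1.01. In 4 pairs the opposite arm was rarer in ld-2 beyond counting error, and 3 of these were miR166. Per 100 reads of the partner, miR166h had 5.57 reads in ld-2, against 9.06 in ld-1 (odds ratio 0.615, 0.519 to 0.726), and miR166k had 4.36, against 7.58 (0.575, 0.422 to 0.773). The opposite-arm sequence of miR166a and miR166e had 1.24 per 100 in ld-2, against 1.67 in ld-1 (0.744, 0.569 to 0.963).

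Not every miR166 opposite arm did so: miR166b (1.01, 0.619 to 1.62) and miR166d (1.05, 0.599 to 1.80) had odds ratios near 1, with wide intervals. The fourth pair was miR168a, with 1.86 per 100 in ld-2, against 3.46 in ld-1 (0.536, 0.321 to 0.872). In 1 pair, miR528, the opposite arm was more frequent in ld-2, with 10.4 per 100 reads, against 6.92 in ld-1, with 7.75 in wild type (odds ratio 1.5, 1.27 to 1.76).

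**Figure D5:**
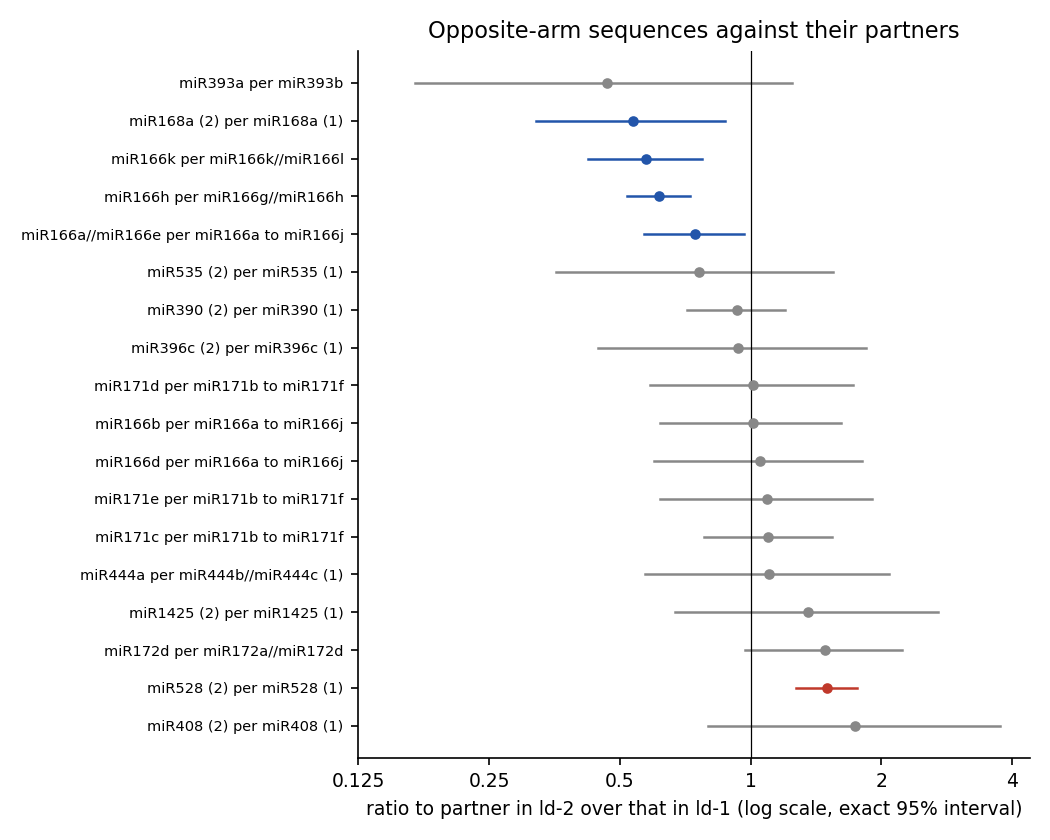
Odds ratio of the opposite-arm sequence to its partner, ld-2 over ld-1, on a log scale with exact 95% intervals (counting error only), for 18 pairs; blue marks an interval below 1, red one above 1 and grey one that includes 1. The 4 blue pairs are miR168a and 3 of miR166, the red pair is miR528, and (1) and (2) mark the more and the less abundant of 2 sequences listed under one name.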

How the data were processed

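Small RNA of 20 to 30 nt was gel-purified from total RNA of young panicles and sequenced on a MiSeq after NEXTFlex library preparation, per the labels. The authors deposited raw read counts per mature miRNA sequence and library, per the file headers. No source used here states the trimming, mapping, mismatch rules or annotation release. Genome positions were not analysed here.

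Counts were scaled to RPM with edgeR 4.0.16 TMM factors (R 4.3.3) of 1.09 for ld-2, 0.894 for ld-1 and 1.02 for wild type. Sequences with at least 30 reads over the libraries held 99.5% of reads in ld-2 and 99.7% in ld-1. Ratios, Clopper-Pearson 95% intervals and conditional odds-ratio intervals were computed in Python 3.11.15 with scipy 1.17.1, numpy 2.4.6 and pandas 2.3.3, and plotted with matplotlib 3.10.9. Called sequences were at least 2-fold apart with an interval excluding 0, and level ones had the whole interval within 1.5-fold. No ratio was computed where both counts were at most 3, and a count of 0 was set to a floor of 3 reads. With 1 library per genotype no p-value is given. Since 1 molecule can yield several reads, intervals and floors cover counting error only. The intervals were run on simulated counts that held counting error alone. That run cannot say how the intervals cover the spread between plants or errors of scaling.

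Members, family lists and tests were chosen with earlier results of these data known. Named sequences were every called one, the 10 most abundant, up to 5 per list by abundance, the 3 nearest the threshold on each side and every miR172 sequence; others were chosen after their values were seen. Within-library pairs were the 2 most abundant sequences per family, with arm and cross-family pairs added after seeing the data. Alternatives were other scalings (DESeq2 1.42.0 size factors among them), read minimums, size thresholds, a 99% interval, added reads and family or seed sums.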

Additional observations from a re-analysis of the deposited data

Results flagged for a closer look

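Rows under the read minimum took no part in the comparison above, and 148 of them had a read in ld-2 or ld-1, with 351 reads in all in ld-2 and 366 in ld-1. At 2-fold with a 99% interval excluding 0, 9 were higher in ld-2 and none lower. All 9 are 21 nt long and numbered between miR5400 and miR5899. miR5487 had 18 reads in ld-2, against 2 in ld-1, with 5 in wild type, a log2 ratio of 3.96. miR5820 had 8 reads in ld-2 and 1 in ld-1 (3.79), and miR5516a//miR5516b had 15 and 2 (3.70). These are the highest of the 9, each resting on 1 or 2 reads in ld-1.

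miR5486 had 17 reads in ld-2 and 3 in ld-1 (3.29), miR5822 had 14 and 3 (3.01), miR5527 had 9 and 2 (2.96), and miR5507 had 19 and 8 (2.04). miR5494 had 7 reads in ld-2 and 0 in ld-1, and miR5518 had 6 and 0. Against a floor of 3 reads their log2 ratios are 2.01 and 1.79, with lower 95% limits of 1.32 and 1.03.

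Summed over the 37 under-minimum rows of 21 nt in that range, ld-2 had 186 reads, against 61 in ld-1, a log2 ratio of 2.40 (95% interval 1.97 to 2.84). The other 50 rows of 21 nt under the minimum had 75 reads in ld-2, against 134 in ld-1 (-0.05, -0.48 to 0.37). The 7 rows of 24 nt in the range had 6 and 21 reads (-1.02, -2.62 to 0.34). The range was set after the values were seen. None of these differences was tested against the spread between plants.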

How the results depend on the processing

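No paired analysis was possible because each genotype has 1 library, and no replicate could be left out. Against 21 higher, 6 lower and 24 level sequences, RPM of all miRNA reads gave 3 lower, a 1.5-fold threshold 12 lower, a log2 threshold of 1.5 2 lower, and sums by family 9 higher and 3 lower. Without a read minimum 33 were higher, and with at least 100 reads 8. Within 2-fold, 51 were level; with RPM of all miRNA reads 14 of the 24 remained level. The median of all sequences shifted by -0.11 without the 5 most abundant in the library sizes and by 0.11 with TMM without miR2118. The cause of these changes was not tested beyond the fewer or more sequences that each rule admits. The summed SPL-targeting ratio of -0.15 turned to 0.14 with RPM of all miRNA reads. Arm ratios whose interval excluded 1 numbered 3 at 99%, against 5 at 95%. DESeq2 size factors, TMM without miR2118 and the other settings kept both counts within 1.5-fold. The 12 miR2118 sequences, miR156 and miR319a kept their calls wherever they were tested. Depth limits the rare sequences: 20 higher and 5 lower remained with a 99% interval, without miR1428e and miR2055.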
